A study of Mus musculus with 6 samples.

Results

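The GIMAP genes (GTPases of the immunity-associated protein family) form 1 cluster on mouse chromosome 6. Members were taken as the rows of the deposited tables whose symbol is Gimap1, Gimap3, Gimap4, Gimap5, Gimap6, Gimap7, Gimap8 or Gimap9, and all 8 were found among 30733 gene symbols. Transcript levels had been measured by RNA sequencing in 6 libraries of cells labelled as haematopoietic stem cells, the bone marrow cells that renew every blood lineage. The 3 MHCII-hi libraries came from cells labelled as having a high surface level of MHC class II, which displays peptides to CD4 T cells. The 3 MHCII-lo libraries came from cells labelled as having a low level. Transcripts of other blood cells, neutrophils above all, were abundant in both groups, and genes that define long-term stem cells were low, with values given at the end. Both groups had been sorted from the bone marrow of wild-type (WT) mice, and both had received 5 Gy of total body irradiation, so every value below is from irradiated animals. The sources used here do not state the age of the mice, the time after irradiation, the sort gates or any pooling of animals. The labels do not say that replicates came from separate mice, so the p-values reflect the spread among these libraries alone, and that spread may be technical.

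GIMAP proteins are GTP-binding proteins anchored to or recruited to internal membranes, and they share a GTPase domain of a type also found in plants. In mice they are best known from lymphocytes: T cells, B cells and natural killer cells need several of them to develop or to stay alive, and loss of Gimap5 causes lymphopenia and also impairs haematopoietic stem cells. Some members bind proteins of the BCL2 family that set the threshold for cell death, and others act in autophagy. Endothelial cells also transcribe several of these genes.

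The cluster spanned 124 kb of build GRCm38, chromosome 6 from 48647234 to 48770851, and held 6 members on the plus strand and 2, Gimap6 and Gimap3, on the minus strand. From the first base onwards the order was Gimap8, Gimap9, Gimap4, Gimap6, Gimap7, Gimap1, Gimap5 and Gimap3. The longest annotated coding sequence of 7 members was between 873 and 984 bases, and that of Gimap8, which carries repeated GTPase domains, was 2064 bases. Gimap3 and Gimap5 were the closest pair, with 90.4% identical bases over 895 aligned coding bases. No other pair of members shared a run of more than 17 bases, whereas Gimap3 and Gimap5 shared one of 140 bases. That run, with 30 bases on each side, is shown because a read that falls inside it cannot be assigned to either gene. Capitals mark the 4 bases that differ, and positions are counted from the first coding base, 145 to 344 in Gimap3 and 157 to 356 in Gimap5.
Gimap3: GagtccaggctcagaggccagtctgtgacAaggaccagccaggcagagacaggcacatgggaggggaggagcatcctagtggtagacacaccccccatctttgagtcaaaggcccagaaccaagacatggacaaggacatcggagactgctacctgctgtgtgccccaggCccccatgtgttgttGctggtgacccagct
Gimap5: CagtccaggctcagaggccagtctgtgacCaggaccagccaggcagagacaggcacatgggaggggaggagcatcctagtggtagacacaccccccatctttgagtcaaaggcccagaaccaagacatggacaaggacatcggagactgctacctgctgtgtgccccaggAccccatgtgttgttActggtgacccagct
Of all stretches of 50 bases in the annotated transcripts, 7.52% of those of Gimap3 and 4.53% of those of Gimap5 occurred in the other gene. The sources used here do not say how the counting split such reads, so the levels of this pair are less certain than those of the other members.

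Promoter windows from RefSeq (GRCm38.p6, 250 bases before to 50 after each annotated start) were available for all 8 members, with an additional window for Gimap8. Those of 3 members are shown because they differ most in what follows. Gimap6 and Gimap4 had the largest changes between the groups on the log2 scale reported below, and Gimap9 the smallest. The order of the largest changes depends on that scale. Capitals mark every match to the 11 motifs described below, and each line runs 5′ to 3′ on the gene's own strand. The Gimap6 window is chr6:48708195-48708494 (minus strand), that of Gimap4 is chr6:48684328-48684627 (plus strand) and that of Gimap9 is chr6:48675885-48676184 (plus strand).
Gimap6: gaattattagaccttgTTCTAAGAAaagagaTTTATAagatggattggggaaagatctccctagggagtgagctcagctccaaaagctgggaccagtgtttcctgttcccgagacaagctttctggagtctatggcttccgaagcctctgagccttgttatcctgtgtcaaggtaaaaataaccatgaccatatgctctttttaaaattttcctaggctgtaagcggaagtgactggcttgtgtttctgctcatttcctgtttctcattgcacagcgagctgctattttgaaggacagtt
Gimap4: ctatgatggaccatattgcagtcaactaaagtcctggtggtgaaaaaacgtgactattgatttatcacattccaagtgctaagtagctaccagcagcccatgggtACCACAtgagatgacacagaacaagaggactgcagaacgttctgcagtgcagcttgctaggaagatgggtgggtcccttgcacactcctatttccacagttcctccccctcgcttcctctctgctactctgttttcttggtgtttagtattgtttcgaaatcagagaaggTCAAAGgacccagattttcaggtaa
Gimap9: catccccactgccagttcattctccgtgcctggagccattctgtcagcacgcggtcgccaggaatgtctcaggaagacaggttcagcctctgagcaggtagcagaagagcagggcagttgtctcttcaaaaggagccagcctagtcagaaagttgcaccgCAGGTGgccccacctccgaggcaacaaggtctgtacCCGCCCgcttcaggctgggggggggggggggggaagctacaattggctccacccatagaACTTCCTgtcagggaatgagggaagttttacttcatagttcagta
The capital stretches in Gimap6 are a GAS match, TTCNNNGAA, the letters bound by STAT factors, and a TATA box match, TATAAA, on the opposite strand. Those in Gimap4 are a RUNX match (TGTGGT) and a TCF/LEF match (CTTTGA), both on the opposite strand. Gimap9 held an E-box (CAGGTG), a GC box (GGGCGG) and an ETS match (AGGAAGT), the last 2 on the opposite strand. Over both strands, the GAS letters were present in windows of Gimap3, Gimap6, Gimap7 and Gimap8, 4 of the 9 windows, against 8.30% of all 32851 promoter windows. ETS letters were present in those of Gimap1, Gimap5 and Gimap9 (9.35% of all windows) and RUNX letters in those of Gimap1, Gimap4 and Gimap7 (16.8% of all windows). Matches to the RBPJ letters GTGGGAA (6.38% of all windows) and the FOXO letters GTAAACA (3.65%) were found in Gimap3 alone of the members. E-box letters were in Gimap9 alone of the members (20.2% of all windows), GC box letters in Gimap7 and Gimap9 (35.7%), TCF/LEF letters in Gimap4 and Gimap7 (16.0%) and TATA box letters in Gimap6 alone of the members (13.6%). The interferon-stimulated response element (ISRE, 3.44% of all windows) and the GATA letters AGATAA (11.2%) were in none of the 9. The GAS and TCF/LEF matches of Gimap7 overlapped. These matches are letters in a window and say nothing about binding.

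Levels are given in FPKM (fragments per kilobase of transcript, scaled for depth). Depth was not stated, and the spacing of the low values put it at about 2.05e+07 to 3.28e+07 fragments in MHCII-hi libraries and 2.27e+07 to 2.47e+07 in MHCII-lo libraries. Class II transcripts went with the sort: the 4 genes Cd74, H2-Eb1, H2-Ab1 and H2-Aa were between 17.2-fold and 41.8-fold higher in MHCII-hi cells (two-sided exact permutation p = 0.1 for their mean, the smallest that 3 libraries against 3 can give). Immunoglobulin genes took 23.4% to 23.7% of the summed FPKM in MHCII-hi libraries and 0.493% to 0.502% in MHCII-lo libraries. FPKM is relative to the library, so scaling without these genes was run as an alternative: the median log2 change of all tested genes was then 0.11 in place of -0.04, and 69.7% in place of 43.5% of the calls were higher. Replicates lay close together, with a median coefficient of variation of 6.22% in MHCII-hi and 6.19% in MHCII-lo among genes of 1 to 20 FPKM. Among the 12110 genes tested, those averaging 1 FPKM or more over the 6 libraries, 58.6% differed between the groups at an adjusted p of 0.05 in limma, 25.5% being higher in MHCII-hi cells and 33.1% lower.

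All 8 GIMAP genes were higher in MHCII-hi cells. In every one of them the lowest MHCII-hi library lay above the highest MHCII-lo library, as was so for 29% of the tested genes (65.8% had groups apart in either direction). All 8 passed the limma test in that direction, against the 25.5% of tested genes that did. For 7 members the mean was 2.98-fold to 5.58-fold higher, and for Gimap9 it was 1.30-fold higher. 6 members rose by 1 or more on the log2 scale, and 4.1% of tested genes passed with such a rise. Gimap1, Gimap5 and Gimap7 were below 1 FPKM on average in MHCII-lo cells and passed the expression minimum only through their MHCII-hi levels, so their presence among the tested genes favours a rise. With no minimum, all 8 still passed among 27171 genes, 14.6% of which were called higher.

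**Figure D1:**
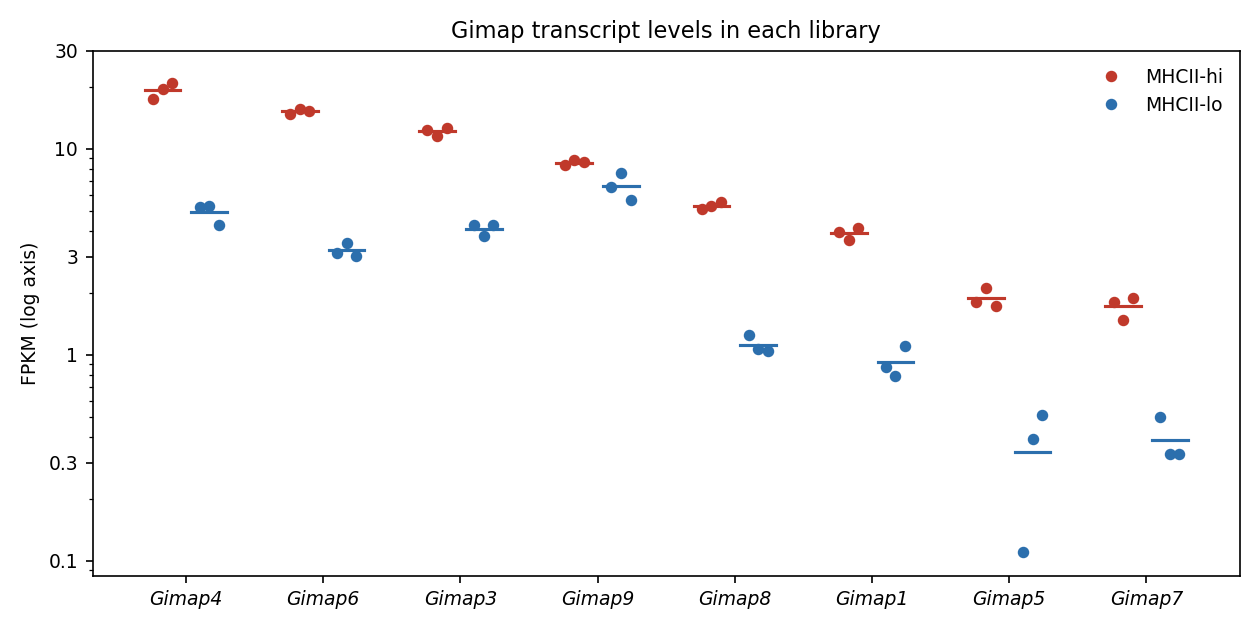
FPKM (log axis) of each GIMAP gene in every library, MHCII-hi in red and MHCII-lo in blue, with a point for each of 3 libraries and a line at their mean, genes ordered by their MHCII-hi mean. The groups are apart for all 8 genes, by the least for Gimap9, and Gimap5 in MHCII-lo spans 0.11 to 0.51 FPKM.

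Gimap5 is the member whose loss in mice depletes lymphocytes and stem cells. It stood at 1.81, 2.11 and 1.72 FPKM in MHCII-hi libraries and at 0.11, 0.39 and 0.51 FPKM in MHCII-lo libraries. Relative to their mean, the MHCII-lo libraries disagreed among themselves more than for any other member, with a coefficient of variation of 60.8%. The first of them held almost none, but the highest was still well under the lowest MHCII-hi library. The mean was 1.88 ± 0.204 FPKM in MHCII-hi and 0.337 ± 0.205 FPKM in MHCII-lo cells (SD, n = 3 each), 5.58-fold higher. Its change on the log2(FPKM + 1) scale, which understates the change of low genes, was 1.12 (SE 0.13, limma adjusted p = 0.000459). The value rests on few fragments: by the estimated depth the MHCII-lo libraries held about 10, 39 and 52 fragments of Gimap5, and the MHCII-hi libraries 246, 180 and 166. With a pseudocount of 0.1 in place of 1 the log2 change was 2.31 (SE 0.41, limma adjusted p = 0.00297).

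Gimap3, the close relative of Gimap5 that in mice localises to mitochondria and the endoplasmic reticulum, was an abundant member. It stood at 12.38, 11.60 and 12.66 FPKM in MHCII-hi libraries, against 4.25, 3.76 and 4.28 FPKM in MHCII-lo libraries. The libraries of each group lay within about 1 FPKM of each other, and the groups were far apart. The log2 change was 1.38 (SE 0.06, limma adjusted p = 2.92e-06), a 2.98-fold higher mean. Gimap3 was thus well above Gimap5 in both groups, by FPKM, which is a value per length.

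Gimap1 is needed in mice for the development of both T and B cells. Its values were 3.95, 3.60 and 4.11 FPKM in MHCII-hi libraries and 0.87, 0.79 and 1.11 FPKM in MHCII-lo libraries. Every MHCII-lo library was far below every MHCII-hi library. The mean was 4.21-fold higher, its log2 change being 1.35 (SE 0.09, limma adjusted p = 2.13e-05), and 1.97 (SE 0.14) with a pseudocount of 0.1. Gimap1os, annotated on the opposite strand across the start of Gimap1, averaged 0.367 ± 0.0681 FPKM in MHCII-hi and 0.153 ± 0.0611 FPKM in MHCII-lo cells (SD, n = 3 each) and was below the minimum for testing. The library kit keeps strand, but the sources used here do not say whether the counting used it.

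Gimap4, which speeds the death of T cells in rodents once that death is under way, was the most abundant member in MHCII-hi cells. Its level was 17.45, 19.46 and 20.84 FPKM in those libraries and 5.21, 5.30 and 4.28 FPKM in MHCII-lo libraries. The MHCII-hi libraries spread over about 3 FPKM, less than the gap between the groups. The log2 change was 1.77 (SE 0.09, limma adjusted p = 7.20e-06) and the mean was 3.90-fold higher. Among tested genes its mean level stood at the 79.1th percentile in MHCII-hi cells and at the 40.7th in MHCII-lo cells.

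Gimap6, a partner of the autophagy protein GABARAPL2, had the largest log2 change of the members and the smallest adjusted p. It stood at 14.77, 15.65 and 15.33 FPKM in MHCII-hi libraries, against 3.13, 3.51 and 3.02 FPKM in MHCII-lo libraries. Each group was tight, with a coefficient of variation of 2.93% in MHCII-hi and 7.98% in MHCII-lo. The mean was 4.74-fold higher (log2 change 1.95, SE 0.05, limma adjusted p = 3.89e-07). It was also among the best covered members, with an estimated 1122 to 1693 fragments in each MHCII-hi library and 249 to 297 in each MHCII-lo library. With a pseudocount of 0.1 its log2 change was 2.21, below the 2.31 of Gimap5, whose ratio of means, 5.58-fold, was larger too.

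Gimap8, the long member, stood at 5.11, 5.27 and 5.54 FPKM in MHCII-hi libraries and at 1.25, 1.07 and 1.04 FPKM in MHCII-lo libraries. Its groups did not come near each other, and its mean was 4.74-fold higher, as for Gimap6 (log2 change 1.57, SE 0.06, limma adjusted p = 2.52e-06). Gimap7, whose human counterpart stimulates GTP hydrolysis by its partners, was low throughout. It stood at 1.80, 1.47 and 1.89 FPKM in MHCII-hi libraries, against 0.50, 0.33 and 0.33 FPKM in MHCII-lo libraries. The groups were apart, at levels that correspond to an estimated 70 to 137 fragments in MHCII-hi libraries and 19 to 26 in MHCII-lo libraries. The mean was 4.45-fold higher, and the log2 change 0.97 (SE 0.10, limma adjusted p = 0.000242). With a pseudocount of 0.1 the change was 1.91 (SE 0.22).

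Gimap9 had the smallest change of the family. Its values were 8.32, 8.81 and 8.61 FPKM in MHCII-hi libraries and 6.51, 7.66 and 5.67 FPKM in MHCII-lo libraries. The highest MHCII-lo library came close to the lowest MHCII-hi library, and the MHCII-lo libraries spread widely. The mean was 8.58 ± 0.246 FPKM in MHCII-hi and 6.61 ± 0.999 FPKM in MHCII-lo cells (SD, n = 3 each), and the log2 change was 0.34 (SE 0.09, limma adjusted p = 0.0176). Without MHCII-hi replicate 2 the adjusted p was 0.0526, and over the other alternatives it ran between 0.0028 and 0.0495. A change at or below that of Gimap9 was found in 83.7% of tested genes, and for the other 7 members this share was 95.7% to 97.9%.

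**Figure D2:**
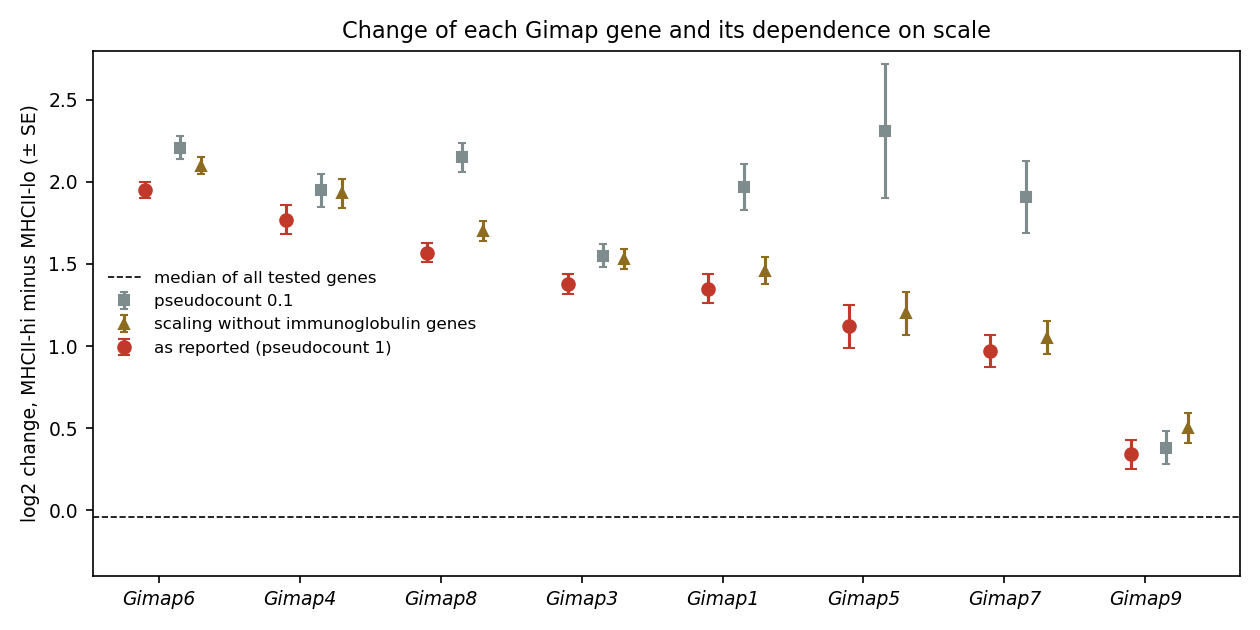
Log2 change (MHCII-hi minus MHCII-lo) of each GIMAP gene with its SE: as reported (red circles), with a pseudocount of 0.1 (grey squares) and with libraries scaled without immunoglobulin genes (brown triangles), beside the median of all tested genes (dashed line, -0.04). The reported values run between 1.95 for Gimap6 and 0.34 for Gimap9, the smaller pseudocount raises the low members most, and Gimap9 stays lowest under all 3 settings.

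Summed over the family, the level was 65.59, 67.97 and 70.70 FPKM in MHCII-hi libraries and 21.83, 22.81 and 20.24 FPKM in MHCII-lo libraries. The sums lay close together within each group and did not overlap between them. The mean sum was 68.1 ± 2.56 FPKM in MHCII-hi and 21.6 ± 1.30 FPKM in MHCII-lo cells (SD, n = 3 each), 3.15-fold higher, and 3.14-fold higher with Gimap3 and Gimap5 left out, an alternative chosen after seeing the data. In bulk libraries, more cells that transcribe these genes and more transcript per cell cannot be told apart.

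The order of the members by FPKM differed between the groups. In MHCII-hi cells it was Gimap4, Gimap6, Gimap3, Gimap9, Gimap8, Gimap1, Gimap5 and Gimap7, and only the neighbours Gimap5 and Gimap7 had ranges over the 3 libraries that overlapped. In MHCII-lo cells it was Gimap9, Gimap4, Gimap3, Gimap6, Gimap8, Gimap1, Gimap7 and Gimap5, with overlapping ranges between Gimap4 and Gimap3, between Gimap8 and Gimap1, and between Gimap7 and Gimap5. Gimap9 made up 12.6% ± 0.397 of the summed FPKM in MHCII-hi cells and 30.5% ± 2.84 in MHCII-lo cells (SD, n = 3 each). Gimap6 made up 22.4% ± 0.678 in MHCII-hi cells and 14.9% ± 0.526 in MHCII-lo cells, and Gimap4 28.2% ± 1.48 in MHCII-hi cells and 22.7% ± 1.42 in MHCII-lo cells. The ratio of Gimap9 to the other members was lower by 1.60 on the log2 scale in MHCII-hi cells. The two-sided exact permutation p of that difference over libraries was 0.1, the smallest possible, and 0.2 after Benjamini-Hochberg adjustment over the 8 members compared. The shares of Gimap4, Gimap6, Gimap8 and Gimap9 did not overlap between the groups (exact permutation p = 0.1 each), and those of Gimap1, Gimap3, Gimap5 and Gimap7 did overlap. Shares in a library are parts of a whole, so the lower share of Gimap9 in MHCII-hi cells must go with higher shares elsewhere in the family. The higher shares of Gimap4, Gimap6 and Gimap8 are therefore not separate shifts. Whether any of them would remain among the members without Gimap9 was not tested.

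**Figure D3:**
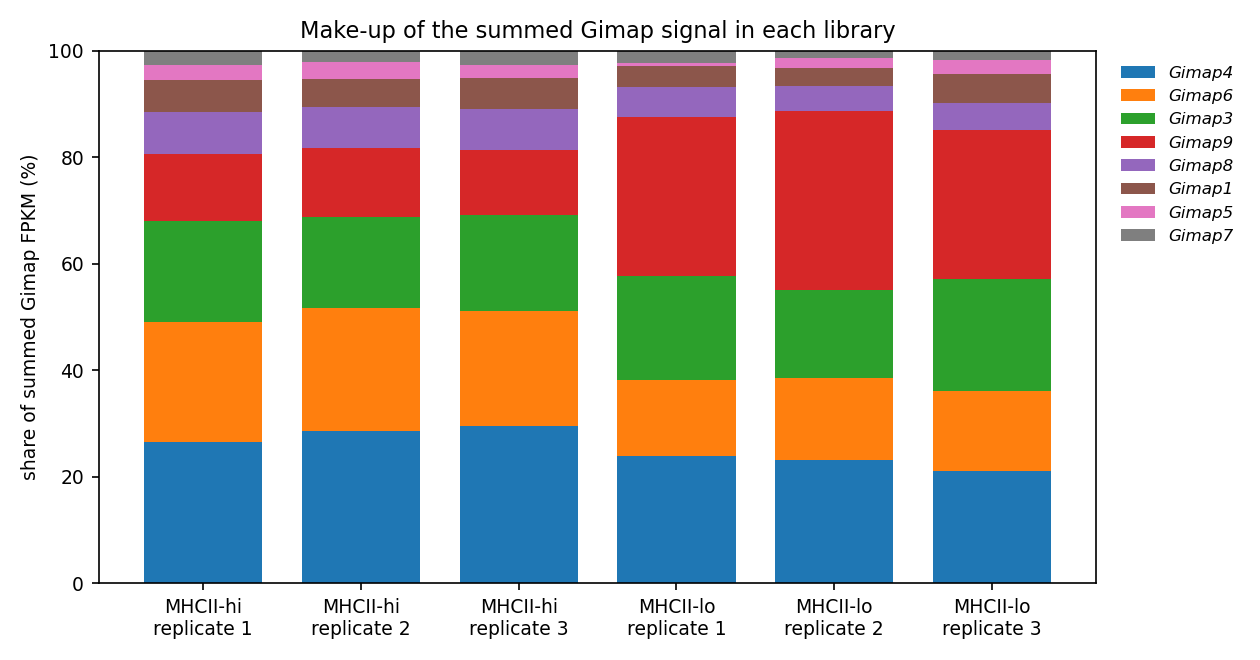
Share (%) of each GIMAP gene in the summed FPKM of the family, 1 bar per library, MHCII-hi libraries on the left and MHCII-lo libraries on the right. Gimap9 takes 12.2% to 13.0% in MHCII-hi libraries and 28.0% to 33.6% in MHCII-lo libraries.

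The neighbourhood of the cluster was examined because genes that lie together can be transcribed together. Within 300 kb of either end the annotation held 43 other genes, of which 27 were in the files and 8 passed the minimum. Of these 8, 2 rose, 2 fell and 4 did not pass, against 58.6% of tested genes that passed in either direction. The 2 that rose lie on the Gimap3 side and encode related membrane proteins of antigen-presenting and innate lymphoid cells. Tmem176b stood at 27.86, 25.69 and 25.74 FPKM in MHCII-hi libraries and at 13.65, 12.53 and 12.89 FPKM in MHCII-lo libraries, with no overlap (log2 change 0.97, SE 0.05, limma adjusted p = 6.07e-06). Tmem176a averaged 10.2 ± 0.175 FPKM in MHCII-hi and 5.20 ± 0.184 FPKM in MHCII-lo cells (SD, n = 3 each; log2 change 0.86). The 2 that fell were Gpnmb, a glycoprotein gene of macrophages at the far end of the window, at 0.683 ± 0.0723 FPKM in MHCII-hi and 1.81 ± 0.108 FPKM in MHCII-lo cells, and Lrrc61, on the Gimap8 side, at 4.15 ± 0.15 FPKM in MHCII-hi and 5.02 ± 0.571 FPKM in MHCII-lo cells (SD, n = 3 each). The call of Lrrc61 (log2 change -0.22, limma adjusted p = 0.0382) was lost with libraries scaled without immunoglobulin genes (adjusted p = 0.412), with no minimum (0.0847), and on leaving out any 1 library other than MHCII-lo replicate 1 (0.0529 to 0.0989). Repin1 (1.56 ± 0.129 FPKM in MHCII-hi and 1.24 ± 0.0666 FPKM in MHCII-lo cells, SD, n = 3 each) and Zfp862-ps (1.61 ± 0.12 FPKM in MHCII-hi and 1.54 ± 0.11 FPKM in MHCII-lo cells) did not pass, nor did a pair of numbered pseudogenes. The balance of directions depended on the minimum. With no minimum, 22 neighbours were tested, of which 8 rose, 1 fell and 13 did not pass. Among all 27171 genes tested in that setting, 3973 rose (14.6%) and 3749 fell.

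Among neighbours below the minimum, the non-coding RNA gene 4833403J16Rik, which starts within 2 kb of the end of Gimap5, stood at 0.81, 1.83 and 0.77 FPKM in MHCII-hi libraries and at 0.10, 0.17 and 0.21 FPKM in MHCII-lo libraries. The groups did not overlap, although the second MHCII-hi library stood well above the other two. Gm28053, an annotated gene that runs from the start of Gimap7 into Gimap5, averaged 0.280 ± 0.147 FPKM in MHCII-hi and 0.0833 ± 0.0208 FPKM in MHCII-lo cells (SD, n = 3 each). Its transcripts share sequence with members: 4.78% of the 50-base stretches of Gimap1, 2.50% of those of Gimap5 and 1.39% of those of Gimap7 also occur in it. Its mean was below those of Gimap1, Gimap5 and Gimap7 in both groups, but in MHCII-lo replicate 1 it stood at 0.09 FPKM beside 0.11 FPKM for Gimap5.

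**Figure D4:**
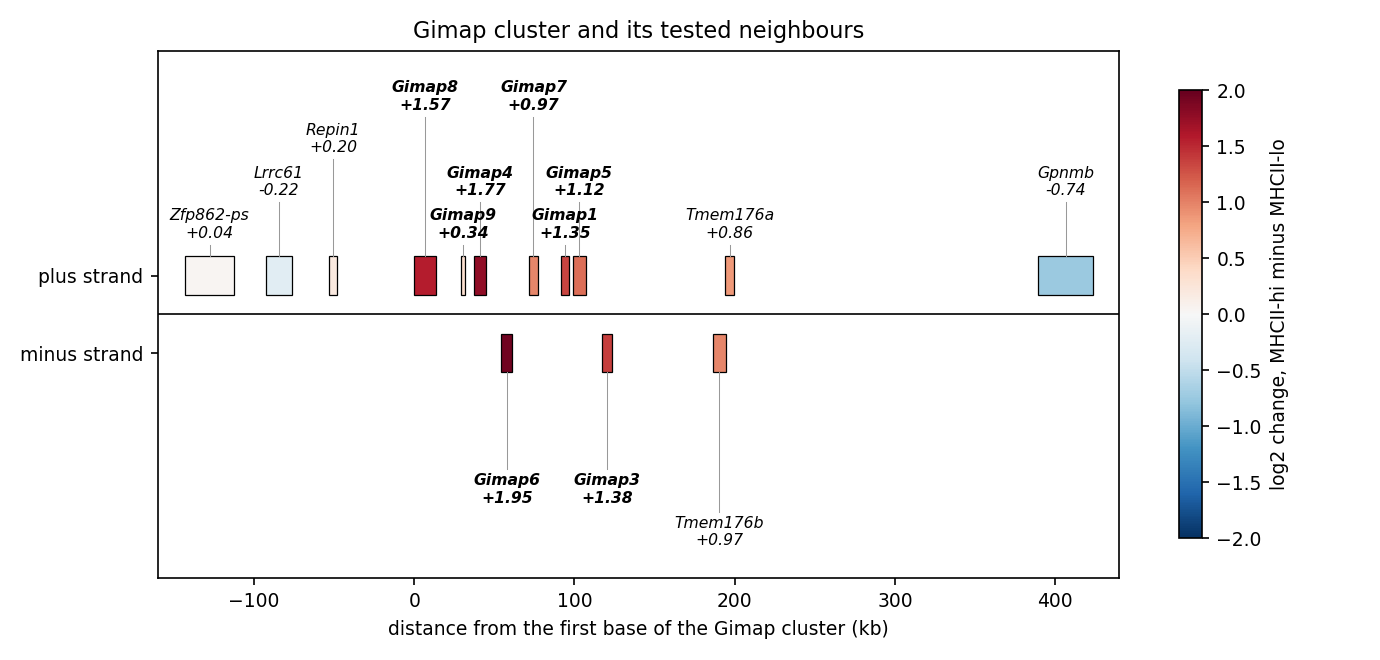
Positions of the 8 GIMAP genes (bold) and of their tested neighbours without numbered predicted genes, as distance in kb from the first base of the cluster, boxes above the line for the plus strand and below it for the minus strand, coloured by the log2 change (MHCII-hi minus MHCII-lo) printed at each. All 8 members are positive, Tmem176a and Tmem176b beyond Gimap3 have changes of 0.86 and 0.97, and Lrrc61 and Gpnmb on the outer sides are negative.

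Transcripts of a list of cell death and autophagy factors, called survival partners here, changed in both directions. The name does not mean that each of them is known to act with a GIMAP protein. Of the 20 listed, all were tested, 7 rose, 10 fell and 3 did not pass, beside 25.5% of all tested genes that rose and 33.1% that fell. The median log2 change of the list was -0.04, the same as that of all tested genes. Scaled without immunoglobulin genes, 9 rose and 6 fell, so the balance of directions depended on the scale. Bcl2, which protects lymphocytes from death, stood at 6.61 ± 0.196 FPKM in MHCII-hi and 3.03 ± 0.0656 FPKM in MHCII-lo cells (log2 change 0.92, SE 0.04, limma adjusted p = 5.93e-06). Pmaip1, an inducible antagonist of BCL2 proteins, and Gabarapl1, of the autophagy conjugation system, also rose, with log2 changes of 0.78 and 0.52. The chaperone Hspa8 stood at 358 ± 3.28 FPKM in MHCII-hi and 481 ± 1.76 FPKM in MHCII-lo cells (SD, n = 3 each; log2 change -0.43), and Gabarap and the stem cell survival factor Mcl1 had log2 changes of -0.46 and -0.25. Gabarapl2, the partner of Gimap6, stood at 14.1 ± 0.821 FPKM in MHCII-hi and 16.3 ± 0.723 FPKM in MHCII-lo cells. Its fall (log2 change -0.19, limma adjusted p = 0.0171) was lost when libraries were scaled without immunoglobulin genes (adjusted p = 0.673) and without MHCII-lo replicate 2 (adjusted p = 0.0549).

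Other immune GTPases were mixed. Of 24 listed, 17 were tested, 11 rose, 3 fell and 3 did not pass, with a median log2 change of 0.38, against 1.36 for the 8 GIMAP genes. Among all tested genes, 25.5% rose and 33.1% fell, with a median of -0.04. Gvin1, a very large interferon-inducible GTPase, stood at 13.1 ± 0.197 FPKM in MHCII-hi and 5.16 ± 0.0987 FPKM in MHCII-lo cells (SD, n = 3 each; log2 change 1.20, SE 0.04, limma adjusted p = 5.15e-07). The antiviral Mx1 and the guanylate-binding Gbp9 had log2 changes of 0.98 and 1.16. Arhgdib stood at 558 ± 11.5 FPKM in MHCII-hi and 729 ± 3.56 FPKM in MHCII-lo cells, with a log2 change of -0.39. Rac2 and Ifi47 also fell, with log2 changes of -0.23 and -0.22, but neither call held when libraries were scaled without immunoglobulin genes (limma adjusted p = 0.0979 and 0.541). The call of Ifi47 was also lost with no minimum (adjusted p = 0.0515), without MHCII-hi replicate 2 (adjusted p = 0.0614) and without MHCII-lo replicate 1 (adjusted p = 0.0599).

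In the list of lymphocyte quiescence and homing, of 22 listed, 19 were tested, 15 rose, 3 fell and 1 did not pass, with a median log2 change of 0.34, beside the same 25.5% and 33.1% of all tested genes. Il7r, the receptor chain for interleukin-7, stood at 6.39 ± 0.216 FPKM in MHCII-hi and 1.84 ± 0.223 FPKM in MHCII-lo cells (SD, n = 3 each; log2 change 1.38, SE 0.07, limma adjusted p = 7.56e-06). S1pr1, the sphingosine receptor for egress from tissue, and Txnip, a regulator of glucose uptake, also rose, with log2 changes of 1.19 and 0.69. The T cell quiescence gene Slfn2 and the transcription factor Klf2 fell, with log2 changes of -0.59 and -0.47. Slfn2 stood at 72.0 ± 2.45 FPKM in MHCII-hi and 109 ± 1.58 FPKM in MHCII-lo cells (SD, n = 3 each).

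The genes with a profile most like the mean of the 8 members were Prg2, Rel, Camk1, Clec10a and Per1, at Euclidean distances of 0.04 to 0.07 between centred log2(FPKM + 1) values over the 6 libraries, out of 10080 genes ranked. Prg2, the major basic protein of eosinophils, stood at 4900 ± 75.2 FPKM in MHCII-hi and 2020 ± 15.4 FPKM in MHCII-lo cells, and Rel, an NF-kB subunit, at 21.1 ± 0.663 FPKM in MHCII-hi and 7.99 ± 0.0404 FPKM in MHCII-lo cells (SD, n = 3 each). With 6 libraries in 2 groups this likeness is little more than an equal change. The members themselves were less alike than that on this scale, since between 23 genes (for Gimap3) and 1419 genes (for Gimap9) lay nearer to the family's mean profile. The scale understates the change of low members: with a pseudocount of 0.1 that of Gimap7 was 1.91 in place of 0.97. That of Gimap9 stayed low, at 0.38. Distances were not computed with that pseudocount.

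Markers of lymphocytes, the cells in which GIMAP genes are best known, were present in both groups and moved with the family. Of 20 T cell markers, 14 were tested and all 14 rose, against 25.5% of tested genes, with a median log2 change of 1.19. All 20 were higher in every MHCII-hi library than in every MHCII-lo library. That held for 29% of tested genes and for 15.1% of those below the minimum and not at 0 throughout. It also held for all 14 B cell markers, all 10 plasma cell markers and 15 of 18 natural killer and innate lymphoid markers. The summed level of the T cell markers was 97.9 to 103 FPKM in MHCII-hi and 30.5 to 33.9 FPKM in MHCII-lo. This was 3.13-fold higher, beside 3.15-fold for the summed GIMAP genes. The ratio of summed GIMAP to summed T cell marker FPKM, computed after both had been seen, was 0.638, 0.694 and 0.705 in MHCII-hi libraries and 0.716, 0.673 and 0.639 in MHCII-lo libraries. These ratios overlapped between the groups. They lean on Gimap9, which held 30.5% of the GIMAP sum in MHCII-lo and 12.6% in MHCII-hi. Its mean was 1.30-fold higher in MHCII-hi, and those of the other members 2.98-fold to 5.58-fold. No ratio to the T cell markers was computed without Gimap9. None of the 20 was at 0 throughout: the chains of the T cell receptor complex Cd3e, Cd3d and Cd3g averaged 1.29 ± 0.03, 4.24 ± 0.235 and 3.69 ± 0.291 FPKM in MHCII-hi and 0.317 ± 0.147, 1.34 ± 0.319 and 1.24 ± 0.163 FPKM in MHCII-lo (SD, n = 3 each). The part of T cell transcripts in the GIMAP result was not tested.

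Other lists moved as well, to different extents, where 25.5% of all tested genes rose and 33.1% fell. Of 18 natural killer and innate lymphoid markers 12 were tested and 11 rose, with sums of 217 to 226 FPKM in MHCII-hi and 166 to 175 FPKM in MHCII-lo. Their median log2 change was 1.18, close to the 1.19 of the T cell list. Nkg7, a cytotoxic granule gene at 148 FPKM in MHCII-hi and 150 FPKM in MHCII-lo, held most of these sums and did not pass the test. Without it the sums were 72.6 to 75.1 FPKM in MHCII-hi and 19.8 to 21 FPKM in MHCII-lo, 3.62-fold higher. Ncr1, Klrb1c and Klrk1, receptors of natural killer cells, averaged 2.06, 4.48 and 3.88 FPKM in MHCII-hi against 0.667, 0.993 and 0.867 FPKM in MHCII-lo. Of 14 B cell markers 4 were tested and rose, with sums of 59.9 to 61.8 FPKM in MHCII-hi and 7.83 to 9.24 FPKM in MHCII-lo. The B cell receptor chain Cd79a averaged 24.3 FPKM in MHCII-hi and 0.280 FPKM in MHCII-lo. Cd79b averaged 19.4 FPKM in MHCII-hi and 7.47 FPKM in MHCII-lo. All 10 plasma cell markers rose, with sums of 1520 to 1540 FPKM in MHCII-hi and 80.1 to 83.4 FPKM in MHCII-lo. Jchain, the joining chain of secreted antibodies, averaged 1340 FPKM in MHCII-hi and 14.2 FPKM in MHCII-lo. Sdc1 and Prdm1 averaged 5.29 and 5.26 FPKM in MHCII-hi, against 0.393 and 0.310 FPKM in MHCII-lo. Of 15 endothelial markers 5 were tested and 4 rose, with sums of 26.2 to 27.8 FPKM in MHCII-hi and 16.1 to 16.5 FPKM in MHCII-lo. Tie1, Eng and Vwf, which blood cells can also express, were called higher, at 2.66, 5.85 and 1.36 FPKM in MHCII-hi, against 1.46, 3.14 and 0.663 FPKM in MHCII-lo. Egfl7 and Flt1 went the other way, at 1.93 and 0.443 FPKM in MHCII-hi, against 2.27 and 0.813 FPKM in MHCII-lo. Egfl7 did not pass the test, and Flt1 was below the minimum. Cdh5 and Kdr averaged 0.327 and 0.0567 FPKM in MHCII-hi, against 0.0767 and 0.0367 FPKM in MHCII-lo, and Cldn5 was listed at 0 in every library. Pecam1, which leukocytes and platelets also express, averaged 12.2 FPKM in MHCII-hi and 7.25 FPKM in MHCII-lo.

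Of 16 stem cell markers 11 were tested, 8 rose and 3 did not pass, beside 25.5% of all tested genes that rose and 33.1% that fell. The stem cell sums were 119 to 125 FPKM in MHCII-hi and 58.7 to 59.4 FPKM in MHCII-lo. The genes that define long-term stem cells most closely were low: Mecom, Fgd5 and Procr averaged 0.217, 0.137 and 0.497 FPKM in MHCII-hi, against 0.0667, 0.00667 and 0.253 FPKM in MHCII-lo. All 16 neutrophil markers fell, with sums of 19600 to 19900 FPKM in MHCII-hi and 43400 to 44000 FPKM in MHCII-lo, so both groups held neutrophil transcripts at high levels against their label. S100a8, S100a9 and Ngp, products of maturing neutrophils, averaged 3830, 6580 and 2530 FPKM in MHCII-hi and 11700, 16900 and 4130 FPKM in MHCII-lo. Eosinophil, basophil and mast cell markers (9 of 10 rose), megakaryocyte and platelet markers (4 of 6 tested rose) and monocyte, macrophage and dendritic markers (6 rose and 3 fell of 9 tested) had summed levels 2.32-fold, 1.62-fold and 0.914-fold those of MHCII-lo in MHCII-hi cells. Beside Prg2 above, the eosinophil genes Epx and Siglecf averaged 370 and 18.2 FPKM in MHCII-hi, against 130 and 9.95 FPKM in MHCII-lo. The platelet genes Pf4, Ppbp and Itga2b averaged 20.6, 11.7 and 19.5 FPKM in MHCII-hi, against 18.4, 3.13 and 12.4 FPKM in MHCII-lo. The monocyte genes Csf1r, Ly6c2 and Ccr2 averaged 29.8, 321 and 40.8 FPKM in MHCII-hi, against 23.0, 396 and 54.6 FPKM in MHCII-lo. From the same list the dendritic cell genes Cd209a, Itgax and Siglech averaged 16.4, 5.32 and 3.86 FPKM in MHCII-hi, against 0.60, 0.75 and 0.56 FPKM in MHCII-lo. Without Ly6c2, which held 69.7% of the sum of that list in MHCII-hi and 78.6% in MHCII-lo, the rest was 1.29-fold higher in MHCII-hi. Sums of other lists also leaned on the gene with the highest mean, to different extents. Without Cd79b the B cell sum was 33.6-fold higher, without Jchain the plasma cell sum 2.74-fold and without Trbc2 the T cell sum 3.20-fold. That plasma cell value leans on Xbp1, at 78.4 FPKM in MHCII-hi and 64.7 FPKM in MHCII-lo. The plasma cell list without Jchain summed to 179 to 192 FPKM in MHCII-hi and 67.5 to 68.5 FPKM in MHCII-lo. Xbp1 was 1.21-fold higher, and the plasma cell markers other than Jchain and Xbp1 were 12.2-fold (Derl3) to 76.3-fold (Mzb1) higher. Without Gimap4 the GIMAP sum was 2.92-fold higher. Ly6a held 29.3% of the stem cell sum in MHCII-hi and 4.22% in MHCII-lo. Without it that sum was 1.52-fold higher, in place of 2.06-fold. The eosinophil, basophil and mast cell sum was 2.01-fold higher without Prg2, and the megakaryocyte and platelet sum 2.11-fold without Pf4. The part of these cell types in the GIMAP levels was not tested.

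**Figure D5:**
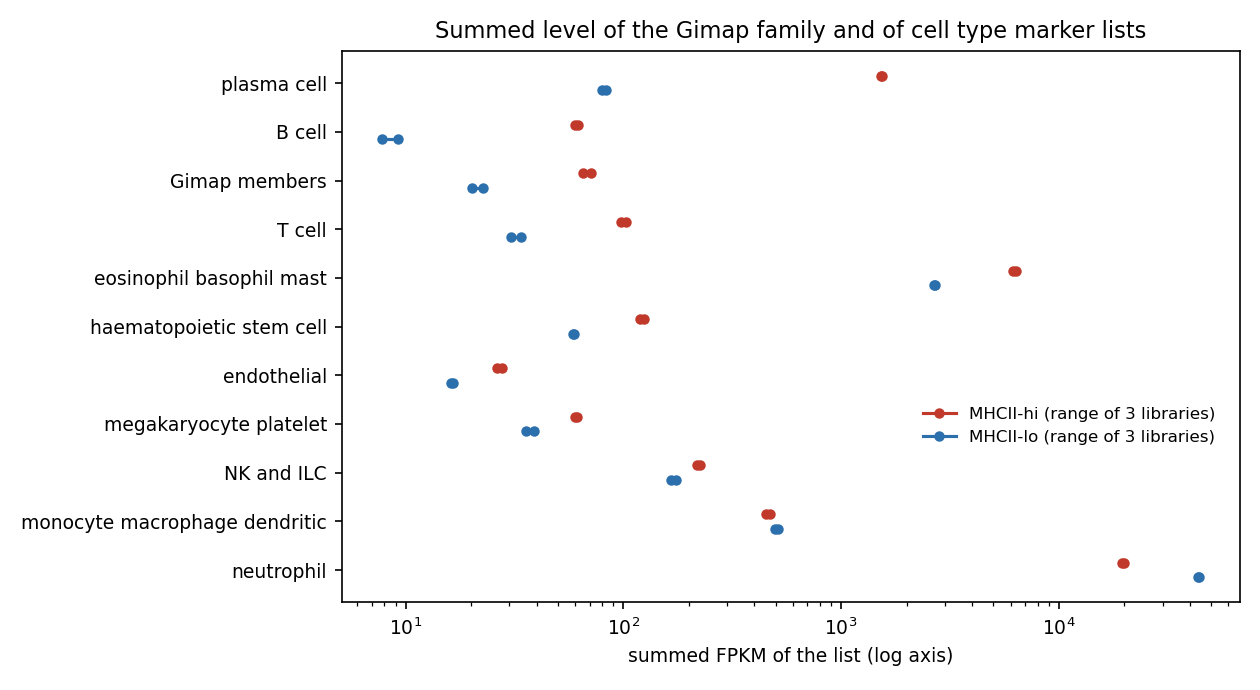
Summed FPKM (log axis) of the 8 GIMAP genes and of each cell type marker list, as the range over 3 libraries, MHCII-hi in red above MHCII-lo in blue. The GIMAP sum and the T cell sum are separated by similar distances between the groups (3.15-fold and 3.13-fold), B cell and plasma cell sums by larger ones, and the neutrophil sum lies on the other side. The small distance of the NK and ILC sum (1.30-fold) rests on Nkg7, without which it is 3.62-fold. Gimap9, itself 1.30-fold higher, held 30.5% of the GIMAP sum in MHCII-lo. Without Gimap4 the GIMAP sum is 2.92-fold higher, and without Trbc2 the T cell sum 3.20-fold.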

How the data were processed

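Stranded mRNA libraries were made of 6 sorted samples, per the labels' protocols. HISAT2, StringTie, fastp and the build GRCm38 (mm10) are named in the submitters' processing notes, and the sources used here give no versions, settings or annotation. Each library has its own table, deposited by the authors, whose values were taken to be FPKM: the headers give no unit, the values are not whole, and they sum to 332289 to 383600 per library. FPKM is relative to the library total.

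Of rows sharing a symbol the one with the highest mean was kept (70 of 30803 dropped). The 12110 genes averaging 1 FPKM or more were tested with limma-trend (limma 3.58.1, R 4.3.3) on log2(FPKM + 1), MHCII-hi minus MHCII-lo, no covariate, two-sided, Benjamini-Hochberg adjusted over all tested genes at 0.05. Folds are plain ratios of mean FPKM. Depth was estimated from the lowest values of single-exon genes of 100 to 1000 bases, with the 1-fragment step sought in a fixed window; fragment estimates use the union of exons, are approximate and cover counting only. Coordinates come from GENCODE M21 (98.1% of tested symbols found), promoters from RefSeq, and alignments were made with Biopython 1.88.

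The members and lists were chosen with earlier results of these data known. Named genes were all members, tested neighbours, up to 3 genes per direction with the smallest p in each of 3 pathway lists, the 5 nearest profiles, the class II genes and the first 3 genes of each marker list; a few genes this rule names are not reported here. Gabarapl2, Gimap1os, Gm28053, 4833403J16Rik, Cldn5, Tie1, Eng, Vwf, Nkg7, Trbc2, Cd209a, Itgax, Siglech, Gbp4, Gbp8, Bach2, Gata3 and Lef1 were named after their values were seen. Ly6a, Xbp1, Derl3, Mzb1, Egfl7 and Flt1 were also named after their values were seen. Alternatives were a pseudocount of 0.1, no minimum and a minimum of 5 FPKM, quantile, upper-quartile and immunoglobulin-free scaling, no trend, robust moderation, a replicate block and each library left out. Sums without the gene of highest mean in a list were added after seeing the data.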

Additional observations from a re-analysis of the deposited data

How the results depend on the processing

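All 8 members were higher under every alternative tried, and all stayed past the test except Gimap9 without MHCII-hi replicate 2 (log2 change 0.32, adjusted p = 0.0526); with a minimum of 5 FPKM only 4 members were tested, and all 4 were called. The call of Lrrc61 was lost under the block (adjusted p = 0.0667). Leaving out each library in turn gave 7 to 8 members called, 6399 to 6576 genes called, 0.25 to 0.44 for Gimap9 and a summed family level 3.05-fold to 3.24-fold higher. With a minimum of 5 FPKM fewer genes were tested, and 5079 of 7327 were called, 1792 of them higher. Of the other immune GTPases, 6 were then tested, 2 being called higher and 3 lower. Of the neighbours, 4 were tested and 2 called, all higher. With no minimum 9 of 22 tested neighbours were called, 8 higher and 1 lower, against 7722 called of 27171 genes. Scaled without immunoglobulin genes, the median change of all genes moved to 0.11 from -0.04, 4901 genes were called higher and 2131 lower (69.7% of calls higher, in place of 43.5%), and the family sum was 3.56-fold higher; under quantile normalization 34.7% of calls were higher, and with no minimum 51.5%. Labels number the replicates 1 to 3 in both groups, but same-numbered libraries did not deviate together (correlations of -0.09, 0 and -0.03), so the number is not treated as a pairing. With the replicate block 6638 genes and all 8 members were called. Depth limits Gimap5 and Gimap7 in MHCII-lo, where an estimated 10 to 52 and 19 to 26 fragments were behind each value.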

Other observations

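Some immune GTPase and lymphocyte genes lay below the expression minimum and were not tested. All 7 such GTPases were higher in every MHCII-hi library than in every MHCII-lo library, as were the 3 untested lymphocyte genes. Of all 15061 genes below the minimum that were not at 0 throughout, 15.1% had this pattern. The guanylate-binding genes Gbp4 and Gbp8 averaged 1.48 ± 0.178 and 1.59 ± 0.233 FPKM in MHCII-hi cells, against 0.363 ± 0.136 and 0.333 ± 0.12 FPKM in MHCII-lo cells (SD, n = 3 each). Bach2, a transcription factor that restrains effector programmes in lymphocytes, averaged 1.45 ± 0.08 FPKM in MHCII-hi cells and 0.113 ± 0.0551 FPKM in MHCII-lo cells. Gata3 averaged 0.730 ± 0.161 FPKM in MHCII-hi cells and 0.117 ± 0.0577 FPKM in MHCII-lo cells, and Lef1 0.310 ± 0.01 FPKM in MHCII-hi cells and 0.110 ± 0.0557 FPKM in MHCII-lo cells.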
